A study of Mus musculus with 8 samples.

Results

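Matrix metalloproteinases (Mmp genes), ADAMTS proteases with their ADAMTS-like relatives, and the Timp inhibitors were followed in whole mouse ventricle through the first postnatal weeks. The members were chosen by name: rows whose symbol begins with Mmp or Timp and a number, or with Adamts. The deposited values cover 21970 genes, of which 51 matched, and 40 of those had a normalized count of at least 10 in 2 or more of the 8 libraries. These 40 were tested, among 14055 genes that met the same level. They comprise 4 Timp inhibitors, 8 of 16 secreted MMPs, 6 of 7 membrane-bound MMPs, 17 of 19 ADAMTS proteases and all 5 ADAMTS-like genes. The libraries came from C57BL/6J mice, an inbred laboratory strain, aged P3, P6, P12 or P24 (days after birth), and each stage has 2 libraries. No genotype change, drug or sex is named in the labels for any stage. Poly(A) RNA was sequenced, and whether replicates are separate animals is not stated, so the p-values reflect library-to-library spread, which may be technical.

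MMPs are zinc-dependent enzymes that cut collagens, basement membrane and other matrix proteins, either after secretion or while held on the cell surface. They are made as inactive precursors, and membrane-type MMPs can activate others, as MMP14 does for MMP2 with TIMP2 as an adaptor. ADAMTS proteases are secreted relatives that cut proteoglycans such as versican, trim procollagens, or associate with fibrillin microfibrils, whereas ADAMTS-like proteins lack the protease domain. TIMPs bind the active site of these enzymes. In the heart after birth, these families take part in remodelling the matrix between heart muscle cells, in which fibroblasts are the main matrix-producing cells.

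Recovered reads in protein-coding genes lay between 23375967 and 28745112 per library. At that depth 3 reads, the limit that a count of 0 allows, correspond to a normalized count of 2.89 to 4.06, for counting error only. The gap between replicates (median absolute difference on the log2 scale) was 0.51 for the 40 members and 0.39 for all tested genes in P6 ventricles. In P3, P12 and P24 ventricles it was 0.20, 0.17 and 0.21 for the members, and 0.15, 0.15 and 0.12 for all genes. Of the members, 29 of 40 were higher in P6 replicate 1 than in P6 replicate 2. The same count was 28 at P3, 25 at P12 and 16 at P24. The matching shares of all genes were not counted. Markers of heart muscle cells were abundant in every library (summed FPKM of 5 genes between 9519 and 13795). Atrial markers summed to 418 and 154 FPKM in the P3 libraries and to between 28.4 and 159 FPKM in the others. In P3 replicates 1 and 2 normalized counts were 4004 and 52.4 for Myl7, 254 and 0 for Sln, and 2999 and 425 for Myl4. For Nppa they were close, at 3541 and 3569. In P6 replicates 1 and 2 they were 17.2 and 708 for Myl7, 0 and 79.3 for Sln, and 212 and 919 for Myl4. Whether the libraries differ in their part of atrial tissue was not tested. FPKM is the level per gene length. Within each gene the deposited FPKM was proportional to the normalized count, so it carries the same scaling between libraries, and it is used below for levels between genes and for summed levels and shares.

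**Figure D1:**
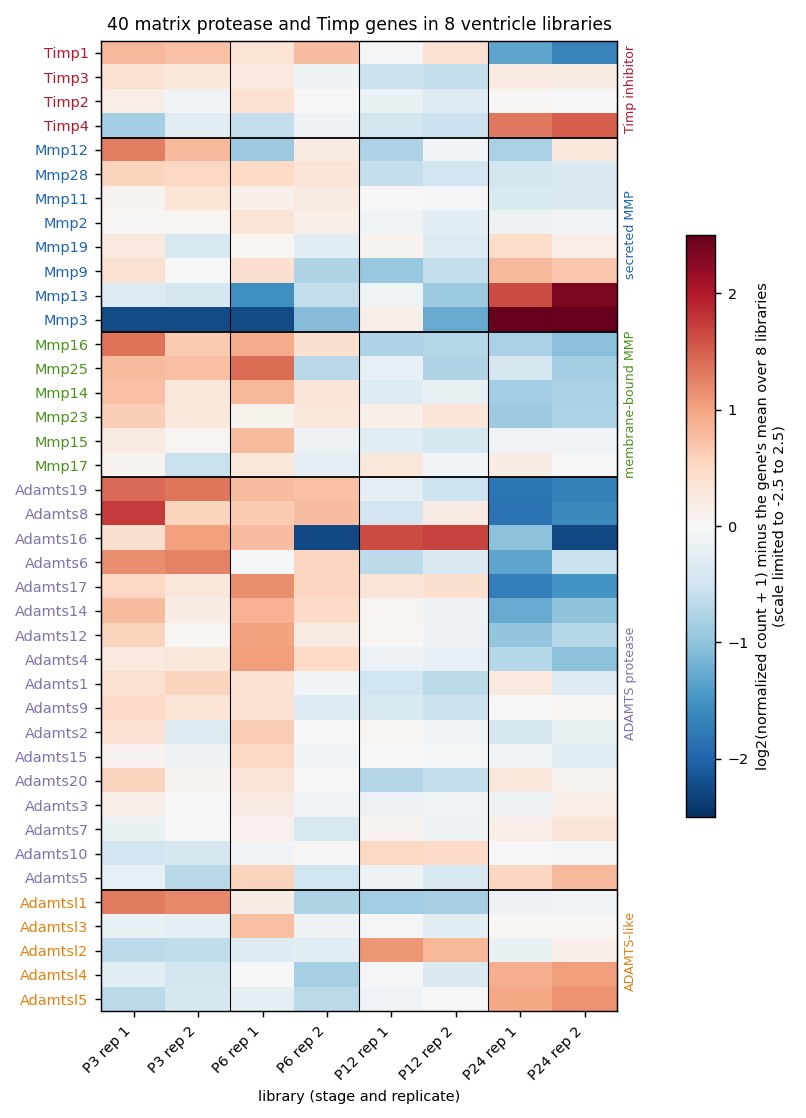
Levels of the 40 members (rows, grouped by class) in the 8 libraries (columns, P3 to P24), as log2(normalized count + 1) minus the gene's mean over the libraries. Timp1, Adamts17, Adamts19 and Adamts8 are lowest in both P24 libraries, whereas Timp4, Mmp3, Mmp13, Adamtsl4 and Adamtsl5 are highest there; Adamtsl2 and Adamts10 are highest in the P12 libraries.

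Per length, Mmp2, Timp2 and Mmp15 were the most abundant members, with means over the 8 libraries of 37.1, 36.3 and 30.0 FPKM. Mmp14 followed at 14.6 FPKM, and the other 36 tested members lay between 0.0330 FPKM (Adamts16) and 9.63 FPKM (Timp3). Adamts1, which cuts versican and aggrecan, led the ADAMTS proteases at 8.61 FPKM, and Adamtsl5 the ADAMTS-like genes at 9.36 FPKM. The summed level of the 6 membrane-bound MMPs was 38.8 and 39.1 at P24, against 67.3 and 55.2 at P3 (FPKM). For the 17 ADAMTS proteases the sums were 45.4 and 45.5 at P24, against 61.0 and 54.7 at P3. The 5 ADAMTS-like genes summed to 31.0 and 34.3 at P24, against 13.4 and 13.7 at P3. The 8 secreted MMPs, most of whose sum is Mmp2, lay at 42.5 and 43.7 at P24, against 45.9 and 47.5 at P3. For the 4 Timp genes the sums were 53.5 and 52.5 at P24, against 64.1 and 56.7 at P3. Both classes were lower at P12 than at P24, at 40.6 and 36.6 for the secreted MMPs and 45.6 and 43.9 for the Timp genes. The membrane-bound MMPs summed to 82.1 and 51.3 at P6 and to 41.8 and 41.7 at P12. Such sums are carried by a few abundant genes and do not describe every gene of a class. At P24 against P3, 7 of the 17 ADAMTS proteases and 3 of the 6 membrane-bound MMPs fell, beside 18.2% of all genes. Of the 5 ADAMTS-like genes 3 rose, beside 18.7% of all genes.

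At P24 against P3, 14 of the 40 members fell and 8 rose, where a call is a Benjamini-Hochberg (BH) adjusted p below 0.05 in limma over all 14055 genes. The called share of all tested genes was 36.9% in either direction, with 18.2% falling and 18.7% rising, against 55% of the members. The median log2 change of the members was -0.28, and that of all tested genes was -0.02; the members' median was also -0.28 with Mmp3, which had no reads at P3, set at its lower bound. Scaled by library size alone, which moved the median of all genes by -0.35 on the log2 scale, 18 members fell and 5 rose, while 5009 of all genes fell and 1511 rose (46.4% called). Mmp3 and, at P24 against P12, Adamts16 are in these counts although each met the filter through 1 stage alone; without both genes 14 fell and 7 rose of 38 members at P24 against P3, and 8 fell and 6 rose at P24 against P12. In bulk tissue, fewer cells of a type and less RNA per cell cannot be told apart.

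Over the successive steps the called members numbered 0, 4 and 16. At P6 against P3 no member was called in limma or in edgeR, while DESeq2 called 3 (3.66% of all genes). An unadjusted limma p below 0.05 was found for 6 of the 40 members and for 2133 of all 14055 genes. Of all genes limma called 0.84%, with 0.655% rising and 0.185% falling. At P12 against P6, 3 members fell and 1 rose (2.26% of all genes called, 1.26% falling and 0.996% rising). The counts of these steps turn on single libraries, for the members and for all genes. At P6 against P3 the 2 P6 libraries pointed opposite ways. The members' median log2 change was -0.17 without P6 replicate 1 and 0.16 without P6 replicate 2, against -0.03 with all libraries. The medians of all genes were -0.01 and -0.005 in the same 2 fits. At P12 against P6 the count was 9 without P6 replicate 1 (5.52% of all genes) and 22 without P6 replicate 2 (40.8% of all genes). It was 0 without either P12 library (at most 0.0925% of all genes) and 2 without any 1 of the P3 or P24 libraries (0.669% to 0.904% of all genes). At P24 against P12, 9 members fell and 7 rose (16.3% of all genes called, 8.14% falling and 8.2% rising), or 11 and 5 when scaled by library size alone, where 2106 of all genes fell and 499 rose. Here the count was 9 without P12 replicate 1 (7.28% of all genes), 7 without P12 replicate 2 (3.69%) and 7 without either P24 library (4.69% and 5.32%). Whether the steps differ from each other was not tested.

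**Figure D2:**
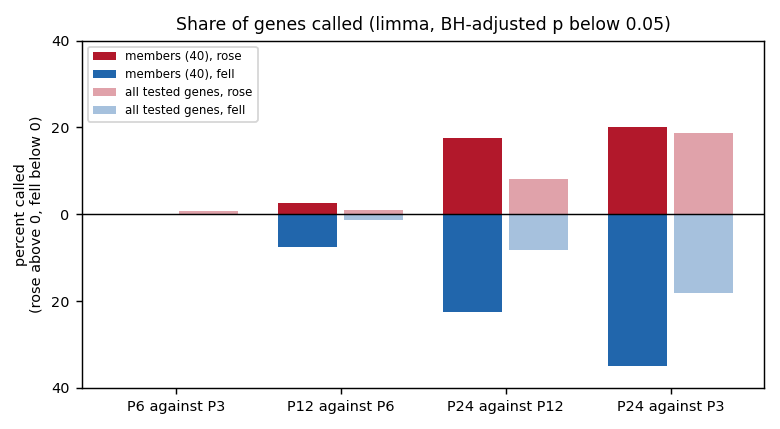
Percent of the 40 members (dark bars) and of all 14055 tested genes (pale bars) called in each comparison, with rising genes above 0 and falling genes below (limma, BH-adjusted p below 0.05). At P24 against P3 the members' falling share is 35% and that of all genes 18.2%.

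The Timp inhibitors took different courses. Timp1, which inhibits most secreted MMPs, fell and Timp4, the Timp best known from the heart, rose, while Timp2 and Timp3 were not called over the span. Timp1 had normalized counts of 269 and 257 in P3 ventricles, 197 and 264 in P6 ventricles, 149 and 200.4 in P12 ventricles and 61.0 and 48.0 in P24 ventricles. The P24 libraries were below all others, and each earlier stage overlapped the next (log2 change -2.26 ± 0.23 (SE); limma, BH-adjusted p = 0.000109). The fall was also called at P24 against P12 (log2 change -1.66 ± 0.23 (SE)). Timp4 had normalized counts of 131 and 195 in P3 ventricles, 153 and 216 in P6 ventricles, 172 and 162 in P12 ventricles and 588 and 671 in P24 ventricles. Both P24 libraries lay above all 6 others, which ranged from 131 to 216 (log2 change 1.97 ± 0.24 (SE); limma, BH-adjusted p = 0.000293). Its step at P24 against P12 had a log2 change of 1.91 ± 0.24 (SE).

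Timp2, the adaptor for MMP14-dependent activation of MMP2, was the most abundant inhibitor. Timp2 had normalized counts of 4415 and 3695 in P3 ventricles, 5088 and 3928 in P6 ventricles, 3508 and 3133 in P12 ventricles and 4010.2 and 3922 in P24 ventricles. Both P12 libraries were lowest and the other stages overlapped, and the P24 against P3 change was -0.03 ± 0.17 (SE; 95% interval -0.41 to 0.35; limma, BH-adjusted p = 0.92). Timp3, which binds the matrix and also inhibits ADAMTS proteases and ADAM17, was lowest at P12. Timp3 had normalized counts of 2751 and 2593 in P3 ventricles, 2535 and 1955 in P6 ventricles, 1471 and 1410.3 in P12 ventricles and 2451 and 2419 in P24 ventricles. Both P12 libraries were below all others, and the P24 libraries lay between the P6 replicates and below both of P3. The rise at P24 against P12 was called (log2 change 0.76 ± 0.15 (SE); limma, BH-adjusted p = 0.0121), but not without any 1 of the P12 or P24 libraries, nor when scaled by library size alone. The preceding step had a log2 change of -0.63 at P12 against P6 and was not called. As a share of the summed Timp FPKM, Timp1 made up 4.58% and 3.67% at P24, against 16.9% and 18.2% at P3, and Timp4 6.66% and 7.74% at P24, against 1.24% and 2.09% at P3. Timp2 made up 59.7% to 70.5% in every library. Timp1, Timp3 and Timp4 lie within the synapsin genes Syn1, Syn3 and Syn2 in the annotation of the earlier mouse assembly GRCm38, where exons of Timp3 and Timp4 overlap those of the host. Normalized counts of Syn1, Syn2 and Syn3 were 3.27 to 17.3, 49.6 to 117 and 6.08 to 17.6 over the libraries.

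**Figure D3:**
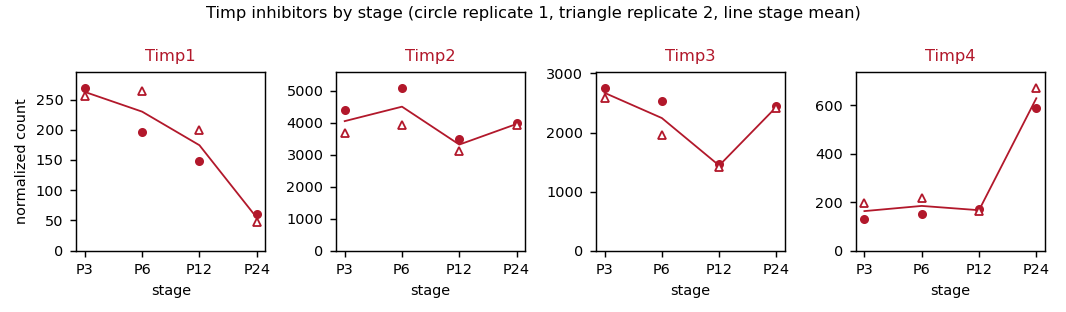
Normalized counts of the 4 Timp genes by stage (evenly spaced; circles replicate 1, triangles replicate 2, lines stage means; each axis starts at 0). Timp1 is lowest at P24 (61.0 and 48.0), Timp4 highest at P24 (588 and 671), and Timp3 lowest at P12 (1471 and 1410).

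The promoter windows of Timp1 and Timp4 are shown because these genes moved in opposite directions. RefSeq windows of 300 bases (250 before and 50 after the annotated start) on GRCm38.p6 were available for 25 of the 40 tested members. They were searched for 4 motifs: the AP-1 element TGANTCA, which reads the same on both strands, the GC box GGGCGG and the retinoid half-site AGGTCA on both strands, and the TATA box TATAAA on the gene's strand. Of 32851 mouse windows, 7.81% held an AP-1 match, 35.7% a GC box, 16.3% a retinoid half-site and 8.32% a TATA box. Capitals mark AP-1, GC box and TATA box matches. The windows are chrX:20869916-20870215 (plus strand) for Timp1 and chr6:115252156-115252455 (minus strand) for Timp4.
Timp1: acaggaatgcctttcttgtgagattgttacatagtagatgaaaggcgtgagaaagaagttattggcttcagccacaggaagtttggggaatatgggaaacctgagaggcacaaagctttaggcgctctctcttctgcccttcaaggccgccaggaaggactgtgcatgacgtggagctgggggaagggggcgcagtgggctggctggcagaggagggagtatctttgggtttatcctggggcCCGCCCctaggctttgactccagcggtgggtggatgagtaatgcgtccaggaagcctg
Timp4: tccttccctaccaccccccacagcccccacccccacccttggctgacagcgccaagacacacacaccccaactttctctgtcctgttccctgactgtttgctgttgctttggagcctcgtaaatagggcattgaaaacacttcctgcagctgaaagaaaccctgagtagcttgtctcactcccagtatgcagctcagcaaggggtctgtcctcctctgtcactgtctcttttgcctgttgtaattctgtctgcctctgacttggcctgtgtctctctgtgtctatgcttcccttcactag
Timp1 had 1 GC box, read on the other strand and starting at position -8 relative to the annotated start, and no match to the other motifs. Timp4 had no match to any of the 4 motifs. A match is a description of letters and not evidence of a bound site.

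Among the secreted MMPs, 2 rose (Mmp3 and Mmp13), 2 fell and 4 were not called at P24 against P3. The shares of all genes were 18.7% rising and 18.2% falling. Mmp3, stromelysin-1, and Mmp13, collagenase-3, were low until P12, Mmp3 at or near the limit of 3 reads in every library, and higher at P24. Mmp3 had normalized counts of 0 and 0 in P3 ventricles, 0 and 1.22 in P6 ventricles, 4.21 and 0.963 in P12 ventricles and 126 and 82.4 in P24 ventricles. These are 0 reads in both P3 libraries, 1 read over both P6 libraries, 5 reads over both P12 libraries and 160 reads over both P24 libraries. The P24 mean was at least 32.4-fold higher than the P3 limit of 3 reads per library, and 41.0-fold above P12 (95% interval 17.2 to 128, counting error only). Mmp3 met the level filter through its P24 libraries alone, so it had to be high there to be tested and its values are given as a description, without a p. Mmp13 had normalized counts of 10.5 and 9.82 in P3 ventricles, 4.05 and 8.54 in P6 ventricles, 12.6 and 6.74 in P12 ventricles and 44.7 and 73.8 in P24 ventricles. Both P24 libraries were above the other 6, by a log2 change of 2.39 ± 0.48 (SE) over P3 (limma, BH-adjusted p = 0.00433). Mmp13 was also called at P24 against P12, though not without P12 replicate 2 or P24 replicate 2.

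Mmp3 and Mmp13 belong to a run of 10 neighbouring Mmp genes, and their promoter windows are shown because both genes rose at the same stage. The windows are chr9:7445572-7445871 (plus strand) for Mmp3 and chr9:7272264-7272563 (plus strand) for Mmp13.
Mmp3: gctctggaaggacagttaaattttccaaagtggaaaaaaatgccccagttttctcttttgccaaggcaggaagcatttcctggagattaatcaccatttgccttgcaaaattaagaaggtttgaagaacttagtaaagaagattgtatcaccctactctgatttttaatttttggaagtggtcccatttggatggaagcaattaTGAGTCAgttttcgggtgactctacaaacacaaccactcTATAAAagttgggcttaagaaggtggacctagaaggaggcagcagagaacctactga
Mmp13: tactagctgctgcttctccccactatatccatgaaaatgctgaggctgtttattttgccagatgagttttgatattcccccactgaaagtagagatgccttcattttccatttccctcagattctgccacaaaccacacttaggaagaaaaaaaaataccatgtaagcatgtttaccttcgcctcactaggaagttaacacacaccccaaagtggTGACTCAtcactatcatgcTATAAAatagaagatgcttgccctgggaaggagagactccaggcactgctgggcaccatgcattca
Each window held 1 AP-1 match, starting at position -46 in Mmp3 and -35 in Mmp13, and 1 TATA box, starting at -7 and -16; these matches do not overlap. Neither held a GC box or a retinoid half-site. Of the 10 genes in the run, 8 had an AP-1 match, but 5 of the 10 had no read in any library and 3 passed the level filter. The third of these, Mmp12, the macrophage elastase, had an AP-1 match in 1 of its 2 windows. Mmp12 had normalized counts of 72.8 and 52.4 in P3 ventricles, 15.2 and 34.2 in P6 ventricles, 16.9 and 27.9 in P12 ventricles and 16.3 and 35.7 in P24 ventricles. Its P3 libraries were highest, but the change at P24 against P3 was not called (log2 change -1.32; limma, BH-adjusted p = 0.0654).

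Mmp28, epilysin, and Mmp11, stromelysin-3, fell. Mmp28 had normalized counts of 245 and 239 in P3 ventricles, 236 and 207 in P6 ventricles, 111 and 119 in P12 ventricles and 121 and 130.4 in P24 ventricles. The P24 and P12 libraries all lay below those of P6 and P3 (log2 change -0.94 ± 0.17 (SE); limma, BH-adjusted p = 0.00259). Its step at P12 against P6 was called (log2 change -0.94 ± 0.17 (SE)), but not without any 1 of the P3, P12 or P24 libraries, nor with no filter on low genes. Mmp11 had normalized counts of 371 and 443 in P3 ventricles, 382 and 408 in P6 ventricles, 348 and 335 in P12 ventricles and 268 and 273 in P24 ventricles. Both P24 libraries were below the others (log2 change -0.58 ± 0.15 (SE); limma, BH-adjusted p = 0.0167); the call was lost without P3 replicate 2 or either P24 library and after quantile normalization. Exons of Mmp11 overlap those of Chchd10, a mitochondrial protein gene with normalized counts of 4173 to 9253, so its count is uncertain. Mmp2, gelatinase A, which cuts basement membrane collagen, ranged from 2869.7 (a P12 library) to 4413 (a P6 library). Its P24 libraries had normalized counts of 3182 and 3329, against 3540.3 and 3650.4 at P3. The log2 change of -0.14 was not called (95% interval -0.46 to 0.17; limma, BH-adjusted p = 0.452). Mmp9, gelatinase B, was low, with normalized counts of 7.38 to 27.1, and rose at P24 against P12 (log2 change 1.51 ± 0.44 (SE); limma, BH-adjusted p = 0.0493). That call was lost without any 1 of the P3, P12 or P24 libraries, when scaled by library size alone, with no filter, with a pseudocount of 0.5, in edgeR and in DESeq2. Mmp19 stayed between 46.9 and 85.4 and was called in no comparison.

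Of the 6 membrane-bound MMPs 3 fell, none rose and 3 were not called at P24 against P3, beside 18.2% of all genes falling and 18.7% rising. Mmp14, which activates MMP2 at the cell surface and is itself a collagenase, fell. Mmp14 had normalized counts of 3733 and 2724 in P3 ventricles, 3964 and 2802 in P6 ventricles, 1803 and 1982 in P12 ventricles and 1232 and 1278 in P24 ventricles. The P24 libraries were lowest, those of P12 next, and those of P6 and P3 overlapped (log2 change -1.35 ± 0.20 (SE); limma, BH-adjusted p = 0.00103). Mmp16, a further membrane-type MMP, fell as well. Mmp16 had normalized counts of 175 and 107 in P3 ventricles, 129 and 89.1 in P6 ventricles, 39.0 and 40.5 in P12 ventricles and 37.9 and 32.0 in P24 ventricles. The P24 and P12 libraries lay below all those of P6 and P3 (log2 change -1.94 ± 0.30 (SE); limma, BH-adjusted p = 0.00104). Its step at P12 against P6 (log2 change -1.41) was called in only 1 of the 8 fits with 1 library left out, the one without P6 replicate 2, and not when scaled by library size alone, with no filter, with a stricter filter or in edgeR. Mmp23, which is held in the membrane by its precursor part and released by cleavage, fell late. Mmp23 had normalized counts of 639 and 499 in P3 ventricles, 445 and 509 in P6 ventricles, 458 and 515 in P12 ventricles and 224 and 242 in P24 ventricles. The P24 libraries were below all others, at P24 against P3 (log2 change -1.28 ± 0.17 (SE); limma, BH-adjusted p = 0.000559) and at P24 against P12 (log2 change -1.06 ± 0.17 (SE)); the second call was lost without P12 replicate 2 or P24 replicate 1.

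Mmp15, the most abundant membrane-type MMP, was not called in any comparison. Mmp15 had normalized counts of 5141 and 4604 in P3 ventricles, 7613 and 3949.9 in P6 ventricles, 3540.5 and 3242 in P12 ventricles and 4142 and 4121 in P24 ventricles. The gap between the P6 replicates was wider than that between any 2 stage means. The change at P24 against P3 was -0.24 ± 0.26 (SE; limma, BH-adjusted p = 0.514). The glycolipid-anchored Mmp17 and Mmp25 had normalized counts of 40.4 to 73.0 and 9.84 to 50.7 and were not called either.

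**Figure D4:**
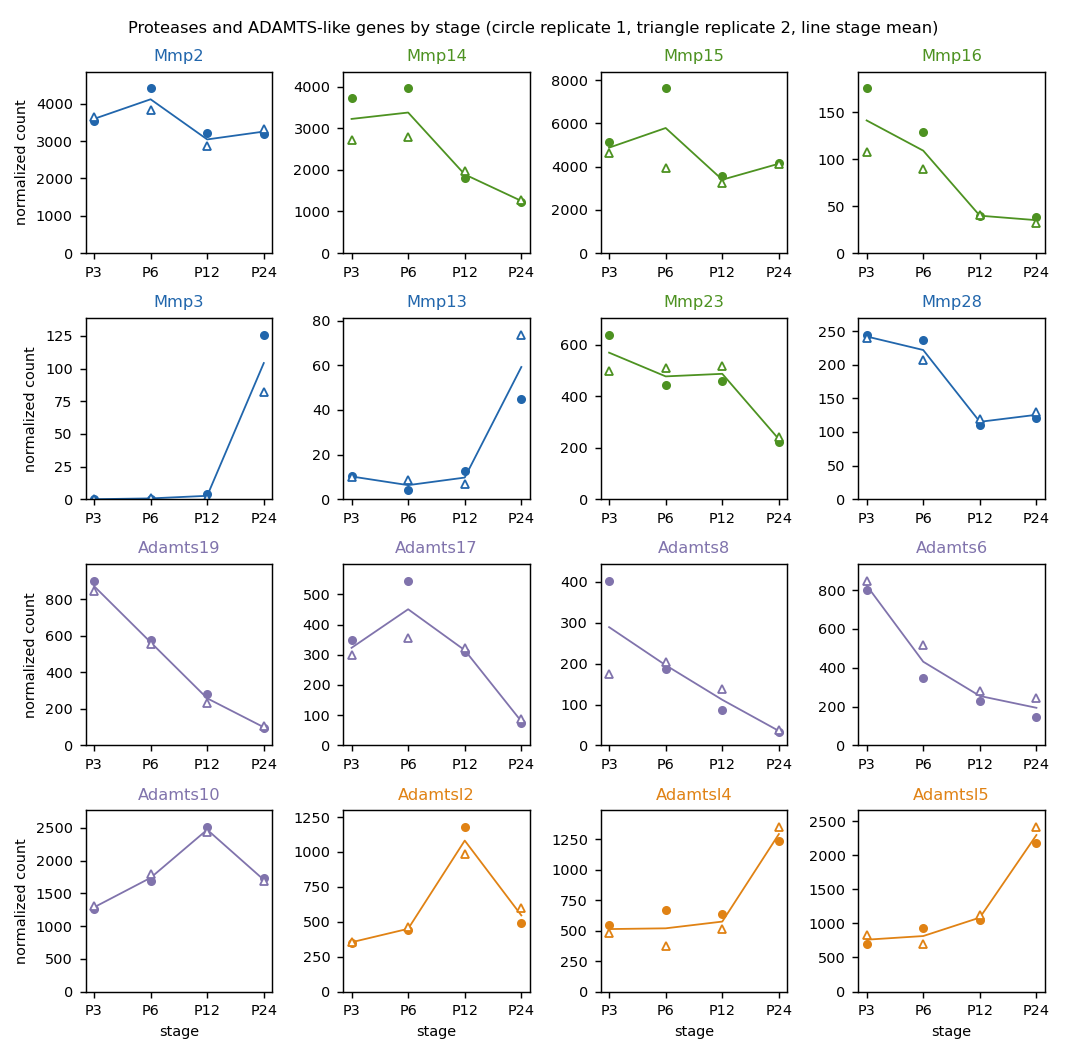
Normalized counts of 16 proteases and ADAMTS-like genes by stage (evenly spaced; circles replicate 1, triangles replicate 2, lines stage means; each axis starts at 0). Mmp14, Mmp16, Adamts19, Adamts8 and Adamts6 are higher at P3 than at P24, Mmp3, Mmp13, Adamtsl4 and Adamtsl5 are highest at P24, and Adamts10 and Adamtsl2 are highest at P12.

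ADAMTS proteases fell in 7 and rose in 2 of 17 cases at P24 against P3, beside 18.2% of all genes falling and 18.7% rising. Both genes of the related pair Adamts19 and Adamts17 fell at P24 against P3 in each of the 8 fits with 1 library left out. Adamts19, which is known from heart valve disease when lost in humans and mice, was lower at each later stage. Adamts19 had normalized counts of 899.8 and 842 in P3 ventricles, 575 and 553 in P6 ventricles, 280.3 and 234 in P12 ventricles and 94.8 and 103 in P24 ventricles. No stage overlapped another (log2 change -3.12 ± 0.16 (SE); limma, BH-adjusted p = 2.57e-06). Its fall was also called at P12 against P6 (log2 change -1.13 ± 0.16 (SE)), though not without either P12 library, and at P24 against P12 (log2 change -1.36 ± 0.16 (SE)). Adamts17 had normalized counts of 348 and 298 in P3 ventricles, 545 and 356 in P6 ventricles, 308 and 323 in P12 ventricles and 73.2 and 86.1 in P24 ventricles. Here the fall came at the last step, with both P24 libraries far below the other 6 (log2 change -1.98 ± 0.22 (SE); limma, BH-adjusted p = 0.000557), and amounted to -2.01 on the log2 scale at P24 against P3.

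Of 7 ADAMTS proteases known to cut versican, aggrecan or related proteoglycans (Adamts1, 4, 5, 8, 9, 15 and 20), 2 fell, 1 rose and 4 were not called. With 36.9% of all genes called, whether this group differs from all genes was not tested. Adamts8 had normalized counts of 403 and 176 in P3 ventricles, 187 and 205 in P6 ventricles, 85.4 and 138 in P12 ventricles and 32.5 and 38.1 in P24 ventricles. The P24 libraries were below all others (log2 change -2.88 ± 0.37 (SE); limma, BH-adjusted p = 0.000434). The P3 replicates lay far apart, and without P3 replicate 1 the log2 change was -2.29 and without P3 replicate 2 it was -3.48; the call held in both. At P24 against P12 the fall was called as well (log2 change -1.60), but not without P12 replicate 2 or either P24 library. Adamts4 had normalized counts of 319.6 and 327 in P3 ventricles, 561 and 382 in P6 ventricles, 246 and 236 in P12 ventricles and 165 and 133 in P24 ventricles. Both P6 libraries were above, and both P24 libraries below, those of the other stages (log2 change -1.12 ± 0.21 (SE); limma, BH-adjusted p = 0.00318). Adamts5 had normalized counts of 769 and 549 in P3 ventricles, 1305 and 626 in P6 ventricles, 805 and 666 in P12 ventricles and 1289.8 and 1552 in P24 ventricles. Adamts5, an aggrecanase and versicanase, rose (log2 change 1.12 ± 0.32 (SE); limma, BH-adjusted p = 0.0224), but P6 replicate 1 lay at the P24 level. That call was lost without P3 replicate 2 or either P24 library and when scaled by library size alone. Adamts1 was lowest at P12, with stage means of 1704 in P3 ventricles, 1377 in P6 ventricles, 823 in P12 ventricles and 1219 in P24 ventricles, and Adamts9 likewise, with 2005 in P3 ventricles, 1573 in P6 ventricles, 1095 in P12 ventricles and 1532 in P24 ventricles; neither was called in any comparison. Adamts15 and Adamts20 were not called, with log2 changes of -0.16 and -0.15 at P24 against P3.

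Of the 3 procollagen-trimming ADAMTS proteases, which remove the amino-terminal propeptide of fibrillar procollagens, Adamts14 fell and Adamts2 and Adamts3 were not called. Adamts14 had normalized counts of 301 and 196 in P3 ventricles, 314 and 240.4 in P6 ventricles, 181 and 158 in P12 ventricles and 71.8 and 84.9 in P24 ventricles. The P24 libraries were lowest and the P12 libraries next (log2 change -1.63 ± 0.24 (SE); limma, BH-adjusted p = 0.000982). The call at P24 against P12 (log2 change -1.11) was lost without any 1 of the P12 or P24 libraries. Adamts2, the most abundant of the trio per length at 6.63 FPKM, had a log2 change of -0.32 and Adamts3 one of -0.04 at P24 against P3.

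The paralogues Adamts6 and Adamts10, the second of which is linked to fibrillin microfibrils, moved apart. Adamts6 had normalized counts of 799.6 and 848 in P3 ventricles, 345 and 517 in P6 ventricles, 229 and 280.3 in P12 ventricles and 144 and 243 in P24 ventricles. The P3 libraries were above all others, and those of P6 came next, followed by overlapping P12 and P24 libraries (log2 change -2.13 ± 0.28 (SE); limma, BH-adjusted p = 0.000427). Adamts10 had normalized counts of 1262 and 1311 in P3 ventricles, 1681 and 1794 in P6 ventricles, 2515 and 2430.4 in P12 ventricles and 1729 and 1685 in P24 ventricles. Adamts10 was highest in both P12 libraries and lowest in both P3 libraries. Its rise at P24 against P3 (log2 change 0.41 ± 0.13 (SE); limma, BH-adjusted p = 0.0313) was lost without any 1 of the P3, P12 or P24 libraries and when scaled by library size alone. The fall at P24 against P12 (log2 change -0.53) was lost without any of the same libraries. Of Adamts7 and Adamts12, which cut cartilage oligomeric matrix protein, Adamts12 fell. Adamts12 had normalized counts of 1154 and 809 in P3 ventricles, 1566 and 901 in P6 ventricles, 816 and 706 in P12 ventricles and 396 and 477 in P24 ventricles. Both P24 libraries were below the rest (log2 change -1.15 ± 0.27 (SE); limma, BH-adjusted p = 0.00979), and the call was lost without P3 replicate 1 or P24 replicate 1. Adamts7 was not called (log2 change 0.34 at P24 against P3). Adamts16 rested on few reads: 28 over both P12 libraries and 1 over both P24 libraries, a ratio of 0.0457 at P24 to P12 (95% interval 0.00112 to 0.277, counting error only). It met the level filter through its P12 libraries alone, so it had to be high there to be tested, and these values are a description.

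Of the 5 ADAMTS-like genes 3 rose, 1 fell and 1 was not called at P24 against P3, beside 18.7% of all genes rising and 18.2% falling. Adamtsl5 and Adamtsl4, whose proteins bind fibrillin, were highest at P24. Adamtsl5 had normalized counts of 698 and 823 in P3 ventricles, 936 and 692 in P6 ventricles, 1045 and 1124 in P12 ventricles and 2177 and 2415 in P24 ventricles. Both P24 libraries lay above all others (log2 change 1.60 ± 0.18 (SE); limma, BH-adjusted p = 0.000171), and the rise was called at P24 against P12 too (log2 change 1.08), except without P24 replicate 2. Adamtsl4 had normalized counts of 543 and 481 in P3 ventricles, 665 and 372 in P6 ventricles, 632 and 515 in P12 ventricles and 1233 and 1350.3 in P24 ventricles. The earlier stages overlapped and both P24 libraries lay above them (log2 change 1.33 ± 0.25 (SE); limma, BH-adjusted p = 0.00332). The step at P24 against P12 (log2 change 1.18) was lost without any 1 of the P12 or P24 libraries. Adamtsl2, which binds latent TGF-beta binding protein and fibrillin, peaked at P12. Adamtsl2 had normalized counts of 350.2 and 356 in P3 ventricles, 439 and 460.0 in P6 ventricles, 1179 and 984 in P12 ventricles and 492 and 599 in P24 ventricles. Both P12 libraries were above the other 6. Adamtsl2 rose at P12 against P6 (log2 change 1.26 ± 0.16 (SE); limma, BH-adjusted p = 0.0125) and fell at P24 against P12 (log2 change -0.99 ± 0.16 (SE); limma, BH-adjusted p = 0.00441); the rise was lost without either P12 library and the fall without P12 replicate 1 or P24 replicate 1. It was also called at P24 against P3 (log2 change 0.62), but not without either P3 library or P24 replicate 2, nor when scaled by library size alone. Adamtsl1, punctin-1, fell. Adamtsl1 had normalized counts of 165 and 153 in P3 ventricles, 76.0 and 39.0 in P6 ventricles, 35.8 and 36.6 in P12 ventricles and 59.6 and 62.7 in P24 ventricles. The P3 libraries were above all others (log2 change -1.36 ± 0.30 (SE); limma, BH-adjusted p = 0.00755), and the call was lost without P3 replicate 1 or P24 replicate 1. Adamtsl3 was not called in any comparison (log2 change 0.25 at P24 against P3).

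**Figure D5:**
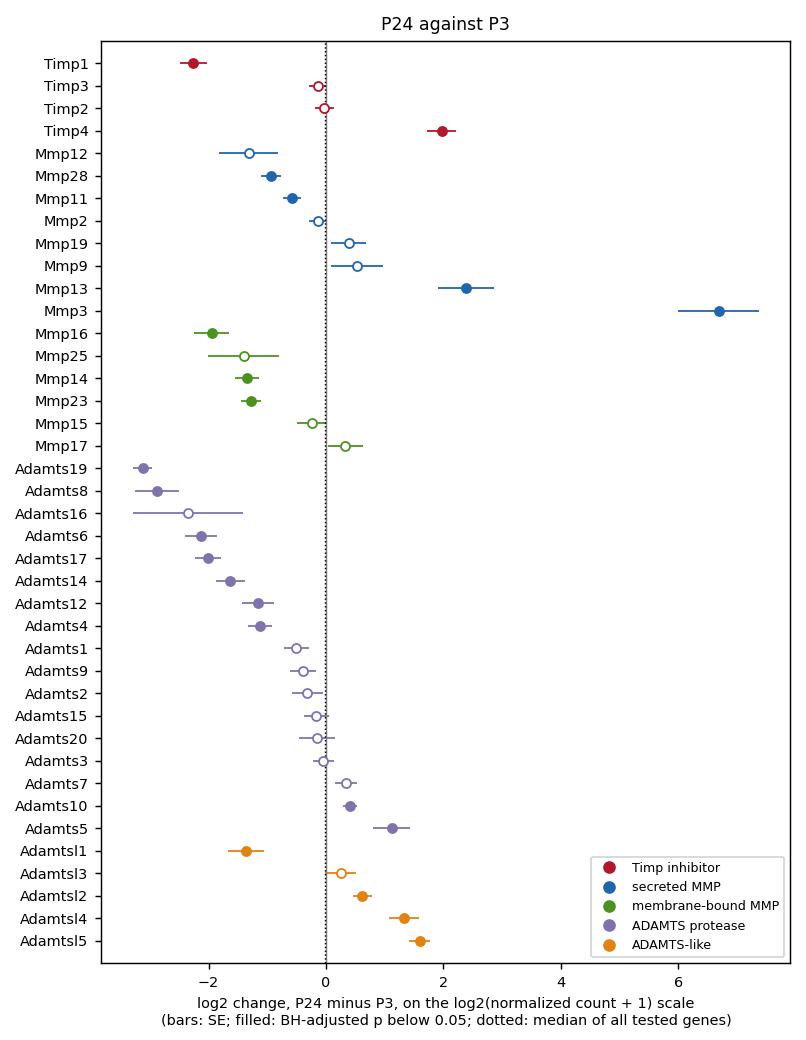
Log2 change at P24 against P3 for the 40 members, grouped by class, on the log2(normalized count + 1) scale (bars SE, filled points BH-adjusted p below 0.05 in limma, dotted line the median of all 14055 genes, -0.02). Adamts19 at -3.12 lies lowest; the point of Mmp3, which had no reads at P3, depends on the pseudocount and its size is not a measured fold, and Mmp3 met the level filter through its P24 libraries alone.

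In all, 25 of the 40 members were called in at least 1 of the 4 comparisons and 15 in none. The matching share of all genes was not counted, so the 25 cannot be set against it. Mmp3 and Adamts16, which each met the level filter through 1 stage alone, are among the 25. Those called in none were Timp2, Mmp2, Mmp12, Mmp15, Mmp17, Mmp19, Mmp25, Adamts1, Adamts2, Adamts3, Adamts7, Adamts9, Adamts15, Adamts20 and Adamtsl3. The 11 rows below the level filter were Mmp1a, Mmp1b, Mmp7, Mmp10 and Mmp20, which had no read in any library, and Mmp8, Mmp21, Mmp24, Mmp27, Adamts13 and Adamts18. Mmp8, the neutrophil collagenase, reached a normalized count of 14.6 in its highest library, and the other 5 of these at most 7.09. Exons of 9 tested members overlap those of another protein-coding gene in the GRCm38 annotation (Adamts4, Adamts7, Adamts9, Mmp11, Mmp12, Mmp19, Mmp28, Timp3 and Timp4), so their counts are uncertain.

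Other genes of matrix turnover were read from lists in the same fit at P24 against P3. Over 8 lists with 68 tested genes, 22 fell and 8 rose, with a median log2 change of -0.41 beside -0.02 for all genes, of which 36.9% were called. Without P3 replicate 1, 16 were called (22.7% of all genes), without P24 replicate 1, 19 (21.8%), and without P6 replicate 1 or 2, 49 (55.6% and 55.7%). Of 10 ADAM proteases, membrane-bound shedding enzymes, Adam12 fell (log2 change -3.97 ± 0.29 (SE); limma, BH-adjusted p = 1.54e-05) and the rest were not called. Of 9 proprotein convertases and procollagen proteinases or their enhancers 3 fell and 2 rose: Pcolce2, an enhancer of procollagen processing, rose by 2.47 and the convertase gene Pcsk6 by 1.21. The convertase gene Pcsk5 had a log2 change of -0.83, Pcolce of -0.66 and Bmp1, the procollagen C-proteinase, of -0.55; Pcsk5 was called in 3, Pcolce in 7 and Bmp1 in 4 of the 8 fits with 1 library left out. Furin, which activates membrane-type MMPs, was not called (log2 change 0.10). Of 7 genes of plasminogen activation 2 fell, Anxa2 by a log2 change of -1.11 and Serpine2, protease nexin-1, of -0.89.

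Of 11 cathepsins and serine matrix proteases 4 rose and 3 fell. Htra3, a secreted serine protease, rose by 2.12 on the log2 scale and Ctsd, cathepsin D, by 0.82 (lost without P3 replicate 1 or P24 replicate 1). Cma1, a mast cell chymase, had a log2 change of -2.32 and Ctsk, the collagen-cutting cathepsin K, of -0.96, the second lost without P3 replicate 1 or either P24 library. Of 10 other regulators 3 fell and 1 rose. Thbs2 and Thbs1, thrombospondins that bind MMPs, fell (-1.63 and -1.62; Thbs1 was not called without P3 replicate 1 or P24 replicate 2), and Bsg, basigin, an inducer of MMPs, rose by 0.87, which was lost without P3 replicate 1 or either P24 library. Reck, a membrane-anchored MMP inhibitor, had a log2 change of -0.50 and was not called (limma, BH-adjusted p = 0.0522).

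Of the substrates, 5 of 7 collagens, 3 of 7 elastic fibre genes and 2 of 7 genes of the versican and aggrecan group fell. In the last group 1 gene, Has3, rose. The shares of all genes were 18.2% falling and 18.7% rising. Versican's gene Vcan had normalized counts of 4709 and 3848 in P3 ventricles, 3548 and 2667 in P6 ventricles, 1389.9 and 1439 in P12 ventricles and 742 and 859.6 in P24 ventricles. No library of a later stage reached the level of P3, and both P24 libraries were lowest (log2 change -2.41 ± 0.18 (SE); limma, BH-adjusted p = 1.61e-05). Acan, aggrecan, fell with it, with 3 reads over both P24 libraries, against 98 and 19 reads in P3 replicates 1 and 2, so that most of the earlier reads lie in 1 library, a ratio of 0.0308 (95% interval 0.00626 to 0.0923, counting error only). Fbn2, the fetal fibrillin, fell by a log2 change of -3.58 and Eln, elastin, of -1.97. Without P3 replicate 1 the change of Eln was -1.17 and without P3 replicate 2 it was -2.77. Col3a1 had a log2 change of -1.85 and Col1a1 of -2.41; the call of Col1a1 was lost if P3 replicate 1 or any 1 of the P24 libraries was left out, and its change was -1.57 without P3 replicate 1 and -3.26 without P3 replicate 2. Has3, a hyaluronan synthase gene, rose by 0.94 and was not called without P3 replicate 1 or P24 replicate 2.

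Markers of the cell types in the tissue were measured in the same libraries. The 6 fibroblast markers, none of them at 0, summed to 242 and 239 at P24, against 256 and 179.7 at P3 (FPKM); 1 rose (Dcn, lost without P3 replicate 2) and 2 fell (Tcf21, and Col1a2, lost without P3 replicate 1). The 5 macrophage markers, of which 4 rose, summed to 99.4 and 99.1 at P24, against 39.8 and 34.7 at P3. Of the 5 pericyte and smooth muscle markers 2 rose and 1 fell, with sums of 267 and 276 at P24, against 139.9 and 149 at P3. Of 4 valve interstitial markers Prrx2 fell, with 1 and 4 reads in the P24 libraries, against 45 and 35 in the P3 libraries. The valve marker sums were 5.09 and 4.27 at P24, against 8.15 and 4.96 at P3. The 5 epicardial markers, of which Tbx18 fell, summed to 9.02 and 9.27 at P24, against 17.8 and 10.1 at P3. The 5 endothelial markers, none of them called, summed to 154 and 177 at P24, against 165 and 171 at P3. The 4 endocardial markers, of which Cytl1 rose and Plvap fell (lost without P3 replicate 1 or P24 replicate 2), summed to 29.6 and 25.7 at P24, against 29.7 and 21.0 at P3. Between these stages the endocardial sums were lower, at 19.8 and 19.3 at P6 and 12.9 and 13.2 at P12. At P24 against P12, 3 of these 4 markers rose and 0 fell, beside 8.2% of all genes rising. Of 5 neutrophil markers 3 passed the level filter and 1 of them, Ngp, fell (lost without either P3 library or P24 replicate 1), with sums of 4.18 and 7.44 at P24, against 13.4 and 10.6 at P3. The part of these cell types in the changes of the members was not tested. Both P3 libraries were almost without Y-linked reads (summed FPKM of 4 genes 0.0278 and 0.0101), as were P6 replicate 2, P12 replicate 2 and P24 replicate 1 (0.00661 to 0.0186), and the other 3 libraries lay at 37.3 to 50.4 FPKM. With a term for these reads the 22 calls at P24 against P3 were all called again, among them that of the X-linked Timp1. In that fit 15 members fell and 8 rose (36.6% of all genes called). The members' median log2 change was -0.44, against -0.28 without the term, and that of all genes was -0.02. The effect of the term comes from the other stages alone, as both P3 libraries were almost without these reads.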

How the data were processed

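The authors deposited 1 table of protein-coding genes for all 8 libraries; per the file headers its signal is a normalized count per gene, beside FPKM values. Per the submitters' processing notes the build was GRCm39 and the tools included DESeq2 1.32.0, HTSeq 0.11.2, STAR 2.7.3a and Trim Galore 0.6.4, roles not given; annotation release and strand setting are not given in the sources used here. All values (100%) were whole multiples of 1 read per library (tolerance 0.001). Since the deposited signal is not a raw count, limma 3.58.1 (R 4.3.3) was run on log2(normalized count + 1) with trended variance, stage as a factor and 1 fit over all libraries (4 residual and 4.83 prior degrees of freedom); genes needed a value of at least 10 in 2 libraries. Fold changes on this scale understate changes of low genes. edgeR 4.0.16 and DESeq2 1.42.0 were run on the recovered reads as alternatives. The fit was tested on simulated data, with changes only in genes of higher counts and 1 spread per gene for all stages. That test does not cover changes in low genes or the wider gap between the P6 replicates. The members, gene lists and tests were chosen with earlier results of these data known. Named were all Timp genes, members called in any comparison, the most abundant member of each class, and the 2 largest rises and falls of each related list with Reck, Bmp1, Furin, Vcan and Col1a1; Mmp12, Mmp15, the other uncalled members, and the marker genes named were added after their values were seen, to complete counts.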

Additional observations from a re-analysis of the deposited data

How the results depend on the processing

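The count of called members at P24 against P3 was 22, lay between 20 and 29 over 12 alternatives and between 17 and 29 when 1 library was left out; 16 of the 22 calls held in all 8 of these fits (15 of 21 without Mmp3). At P24 against P12 the count of 16 lay between 12 and 24, and between 7 and 24 with 1 library left out, with 5 of 16 calls held in all 8 (4 of 14 without Mmp3 and Adamts16). At P12 against P6 the count of 4 was 2 with no filter, 9 in DESeq2 and 8 with the length trend removed, and ranged from 0 to 22 with 1 library left out. At P6 against P3 the count of 0 was 3 in DESeq2 (3.66% of all genes) and 1 with the length trend removed (2.2% of all genes). The members' median log2 change at this step was -0.17 without P6 replicate 1 and 0.16 without P6 replicate 2. Those of all genes were -0.01 and -0.005, so the step turns on single libraries. The 30 called genes of the related lists numbered 49 without both P6 libraries and 16 to 49 with 1 library left out. Over all genes, the 118 called at P6 against P3 became 515 in DESeq2, 309 with the length trend removed, 70 with no filter and 64 by library size alone. The 317 at P12 against P6 became 874, 572 and 189 under the first 3 of these and 512 with a replicate block. Over the 12 alternatives 29.5% to 55.6% of all genes were called at P24 against P3 and 11.3% to 42.8% at P24 against P12. Without both P6 libraries 7819 genes were called at P24 against P3 and 6022 at P24 against P12, against 5187 and 2297 with them. The P6 libraries enter these 2 comparisons only through the spread that all stages share in the fit. Median log2 changes of all genes were the same with and without them (-0.02 and 0.03). The cause of the other shifts, and of the gap between the P6 replicates, was not tested. No called member changed sign under any alternative run. Correlations of same-numbered deviations were 0.14, 0.16 and 0.32 among P3, P6 and P12. They were 0.03, -0.13 and -0.14 for P24 with P3, P6 and P12, so replicate numbers did not pair the libraries over all stages. With a replicate block 23 members were called at P24 against P3 (39.9% of all genes) and 19 at P24 against P12 (20.9%). This block gave 6 members at P12 against P6 (3.64% of all genes) and 0 at P6 against P3 (1.1%), and 35 related genes. With 2 libraries per stage, differences in genes of low counts such as Mmp9 and Adamts16 are limited by depth.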
